A study of Homo sapiens with 4 samples.

Results

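The Krüppel-like factor (KLF) genes described here are 10 named members of the family, KLF2, KLF4, KLF5, KLF6, KLF9, KLF10, KLF11, KLF13, KLF15 and KLF16, out of 19821 protein-coding genes placed in the RefSeq gene table of GRCh38.p14 (the coordinates of hg38). They were chosen by name, with earlier results of these data known, and all 10 were found in the table. For each gene the γH2AX peaks were taken at its ends (1 kb either side of either end of the gene), inside it away from those ends, and in the 50 kb on each side. The series used CUT&Tag on HepG2 cells, an established line from a human liver tumour, to map γH2AX, the phosphorylated form of histone H2AX that spreads around double-strand breaks. In CUT&Tag an antibody brings a transposase to chromatin, which inserts sequencing adapters into the DNA close by. The 4 samples form 4 groups of 1 sample each: mock-induced cells (titled HEPG2-DMSO) and lipid overload-induced cells (titled HEPG2-PAOA), each with the γH2AX antibody and with IgG. All came from the same line, with 100000 cells per assay and 14 PCR cycles. The labels used here state no dose or length of the lipid treatment. The 2 γH2AX peak lists were used. IgG peaks were not analysed here, and the labels do not state whether IgG entered the local background against which the peaks were called.

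KLF proteins are transcription factors with C2H2 zinc fingers at the C terminus, which bind GC-rich boxes and CACCC boxes in promoters. KLF2, KLF4, KLF5 and KLF6 mostly activate transcription. KLF9, KLF10, KLF11, KLF13 and KLF16 recruit the SIN3A corepressor, and KLF15 controls glucose and amino acid metabolism in the liver. Several KLF genes, among them KLF2, KLF4, KLF6 and KLF10, are switched on quickly by growth factors or stress.

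There were 8542 mock peaks and 27296 lipid-overload peaks, with medians of 5 and 9 fragments over the summit. Fragment numbers were worked out from the deposited fold and −log10 p. From the recovered backgrounds, the lipid-overload library was estimated to hold 2.62 times the fragments of the mock library. This depth ratio, and every value scaled by it, assumes that the local background came from the γH2AX library itself. The labels do not state this and it was not tested. With 1 library per condition no difference has a replicate check. The 95% intervals below (exact Poisson for fragments, exact binomial for shares and ratios) describe counting error alone, and PCR copies of a molecule are not told apart. More cells carrying γH2AX at a site and more γH2AX per cell cannot be told apart in these bulk samples.

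After lipid overload, γH2AX peaks lay at an end of 8 of the 10 KLF genes (80%, 44.4 to 97.5), where 43.4% of all protein-coding genes had one. In mock cells the count was 3 of 10 (30%, 6.67 to 65.2), beside 13.4% of all protein-coding genes. The members are a chosen list, not a random draw, so these intervals cannot show a difference from all genes, which was not tested. KLF10, KLF11 and KLF16 were marked at an end in both lists, beside 12.1% of all genes. KLF2, KLF4, KLF6, KLF13 and KLF15 were marked there in lipid overload only, 5 of 10 beside 31.4% of all genes. KLF5 and KLF9 had no gene-end peak in either list, beside 55.2% of all genes. No KLF gene was marked at an end in mock only, beside 1.34% of all genes.

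Where the strand was listed, the end that carried a peak was the 5′ end. RefSeq promoter entries, which give strand and start site, were found for 9 of the 10 genes, with 11 listed starts in all. In lipid overload 8 of these 9 genes had a peak within 1 kb of a listed start, beside 45.5% of the 15813 protein-coding genes with an entry, and KLF9 was the exception. In mock 1 of 9 did, KLF11, beside 14.0%. Of the 9 genes, 7 had a start peak in lipid overload only, beside 32.7%. At the 3′ end 0 of 9 had a peak in either list, beside 5.87% of all genes in lipid overload and 1.49% in mock. By starts instead of ends, KLF5 and KLF16 came into view: both carry their highest peak within the gene span at a start that lies inside the span.

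Promoter sequences are shown for 4 genes because they set starts with a lipid-overload peak beside starts without one. Each run is the 250 bases before a listed start, from RefSeq (GRCh38.p14), written 5′ to 3′ in the direction of the gene. Capitals mark GGGCGG on either strand (GGGCGG or CCGCCC), the core of the GC box bound by SP and KLF proteins. The starts of KLF16 and KLF2 and the inner start of KLF5 had a peak. The outer start of KLF5 and the start of KLF9 had none.
KLF16, chr19:1863580-1863829, minus strand: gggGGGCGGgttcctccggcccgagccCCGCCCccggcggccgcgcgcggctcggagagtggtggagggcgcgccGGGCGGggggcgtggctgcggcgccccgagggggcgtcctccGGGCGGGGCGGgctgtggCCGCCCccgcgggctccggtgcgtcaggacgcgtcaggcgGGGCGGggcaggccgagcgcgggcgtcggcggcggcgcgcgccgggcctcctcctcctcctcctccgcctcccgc
KLF2, chr19:16324576-16324825, plus strand: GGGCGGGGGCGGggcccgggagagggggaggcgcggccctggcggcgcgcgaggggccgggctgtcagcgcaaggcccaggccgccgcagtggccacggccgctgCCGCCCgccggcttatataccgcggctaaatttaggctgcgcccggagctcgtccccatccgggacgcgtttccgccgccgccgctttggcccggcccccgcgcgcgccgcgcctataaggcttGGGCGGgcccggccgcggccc
KLF5 inner start, chr13:73058755-73059004, plus strand: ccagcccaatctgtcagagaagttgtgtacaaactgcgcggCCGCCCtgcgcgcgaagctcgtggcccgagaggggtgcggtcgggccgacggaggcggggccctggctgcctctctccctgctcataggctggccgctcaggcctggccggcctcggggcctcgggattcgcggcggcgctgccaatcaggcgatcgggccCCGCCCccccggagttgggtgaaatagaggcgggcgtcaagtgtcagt
KLF5 outer start, chr13:73054726-73054975, plus strand: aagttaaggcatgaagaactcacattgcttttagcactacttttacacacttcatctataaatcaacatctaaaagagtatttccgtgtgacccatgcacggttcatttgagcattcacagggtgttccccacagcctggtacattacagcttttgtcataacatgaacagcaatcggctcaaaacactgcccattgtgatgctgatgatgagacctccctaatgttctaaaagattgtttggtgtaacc
KLF9, chr9:70414658-70414907, minus strand: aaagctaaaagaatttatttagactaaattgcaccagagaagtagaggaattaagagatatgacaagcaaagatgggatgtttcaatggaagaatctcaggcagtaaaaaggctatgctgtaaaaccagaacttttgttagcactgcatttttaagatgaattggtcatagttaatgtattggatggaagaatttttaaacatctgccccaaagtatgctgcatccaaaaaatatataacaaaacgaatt
The lipid-overload peak covered all 250 bases at KLF2 and at the inner KLF5 start, and 69 of 250 at KLF16, where it reaches further upstream. No mock peak covered any of these 5 stretches.

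The KLF promoters under a lipid-overload peak were rich in G and C, and the 2 starts of this set without one were not. G+C was 86.4% at KLF16, 80% at KLF2 and 70.8% at the inner KLF5 start, against 40.8% at the outer KLF5 start and 32.4% at KLF9. The number of CpG dinucleotides was 45, 41 and 27 in the first set and 3 and 1 in the second. GGGCGG on either strand occurred 7 times at KLF16, 4 times at KLF2 and 2 times at the inner KLF5 start, and was not found in the other 2 stretches. By coverage of the 250 bases, the outer start of KLF11 goes the other way: they had 78.8% G+C and 2 GC boxes and were covered by no peak. A peak of each list does lie within 1 kb of that start, so by the start rule it counts as marked. Over all 11 KLF promoter stretches the median G+C was 74.4%, 9 held a GC box (81.8%), and 4 held CACCC on either strand (36.4%). Among 22156 promoter stretches of protein-coding genes, the median G+C was 62%, 53.7% held a GC box and 58.4% held CACCC. Among the 6764 of them under a lipid-overload peak, the corresponding values were 67.2%, 77% and 59.7%. These matches are letters in a window, not binding sites.

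**Figure D1:**
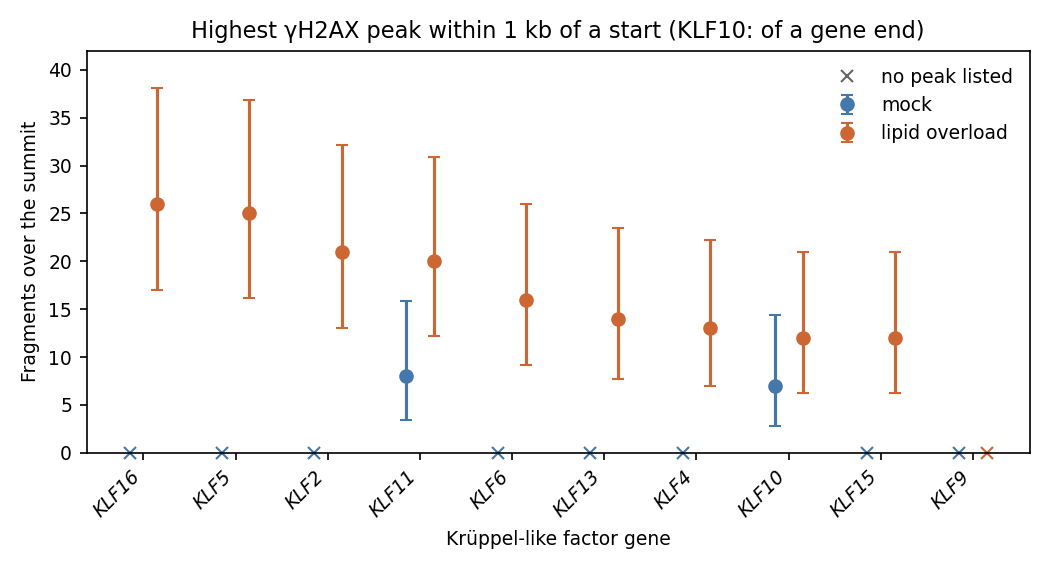
Fragments over the summit (y axis) of the highest γH2AX peak within 1 kb of a listed start of each KLF gene (x axis; for KLF10, of a gene end), in mock (blue) and lipid overload (orange); bars are 95% Poisson intervals and crosses mean that no peak is listed. In lipid overload 9 genes lie between 12 and 26 fragments, and in mock only KLF11 (8) and KLF10 (7) have a value.

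Among the activators, KLF2, which keeps blood vessel endothelium quiescent, had 21 fragments over its start peak in lipid overload (13.0 to 32.1) and no peak there in mock. The peak spans 420 bp at chr19:16324539-16324958, overlaps the start of the gene and of the divergent transcript KLF2-DT, and has its summit 172 bp upstream of the KLF2 start. At equal depth 21 fragments would be 8.0 in the mock library (4.95 to 12.2), and mock peaks with a like local background were listed from 6 fragments up. The interval takes in that limit. Scaled intervals, here and below, carry the counting error of the lipid-overload library alone, not that of the mock library.

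KLF5, a factor of proliferating epithelium, had the second highest start peak, with 25 fragments in lipid overload (16.2 to 36.9) and none listed in mock. It is the only peak in either list at, in or within 50 kb of KLF5. The peak lies at chr13:73058714-73059020, is 307 bp wide and has its summit 107 bp upstream of the inner start. Scaled to mock depth it holds 9.53 fragments (6.17 to 14.1), where mock peaks of like background start at 4, below the interval. A gain beyond the counting error of both libraries was not tested. The summit is 3922 bp from the outer end of KLF5, beyond the reach of the gene-end rule.

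KLF6, a tumour suppressor that responds to tissue injury, had 16 fragments in lipid overload (9.15 to 26.0) in the widest of these peaks, 524 bp at chr10:3785283-3785806. Its summit was 132 bp upstream of the start. The scaled value was 6.1 (3.49 to 9.9), with mock peaks of like background listed from 4, within the interval. The mock list had a peak of 3 fragments 7811 bp past the 3′ end of KLF6 and none at the start.

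KLF4, a reprogramming factor, was the only member with separate peaks at one start. The nearer peak, chr9:107489813-107490006, had 13 fragments (6.92 to 22.2) with its summit 192 bp upstream. The farther one had 9 fragments (4.12 to 17.1) with its summit 592 bp upstream. Both fell short of the mock limit once scaled for depth, by less than counting error. They held 4.95 (2.64 to 8.47) and 3.43 fragments (1.57 to 6.51), where mock peaks of like background start at 5.

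Among the genes for SIN3A-recruiting repressors, KLF10 and KLF11, which respond early to TGFβ, each had a mock peak at the end that was marked in lipid overload. KLF10, on chromosome 8, carried overlapping peaks, with 12 fragments in lipid overload (6.20 to 21.0) against 7 in mock (2.81 to 14.4). The ratio of 1.71 (0.622 to 5.14) takes in the depth ratio of 2.62, so no change beyond depth was detectable there. In lipid overload KLF10 also had 12 fragments in a peak inside the gene, 1628 bp from the same end, and 13 in a peak 1772 bp outside it, over the noncoding gene LOC101927245.

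KLF11 had peaks in both lists, at different places. The mock peak, with 8 fragments (3.45 to 15.8), lies at chr2:10042559-10042850 over the divergent transcript KLF11-DT, 979 bp from the nearest listed start of KLF11. The lipid-overload peak, with 20 fragments (12.2 to 30.9), lies at chr2:10043985-10044476 over the inner start, with its summit 20 bp downstream of it. Scaled to mock depth the latter holds 7.62 fragments (4.66 to 11.8), and mock peaks of like background start at 6, within the interval. The peaks do not overlap, so KLF11 counts as marked in both lists without sharing a peak.

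KLF16, a repressor expressed in many tissues, carried the highest start peak of the family, with 26 fragments in lipid overload (17.0 to 38.1) and none listed in mock. It spans 455 bp at chr19:1863761-1864215, with its summit 378 bp upstream of the listed start, which lies inside the RefSeq gene span. The scaled value was 9.91 (6.47 to 14.5), and mock peaks of like background start at 6, below the interval. As for KLF5, the mock library's own counting error is left out and a gain was not tested. A shared peak lies at the outer 5′ end of the span, within 1 kb of the end of the depalmitoylase gene ABHD17A as well. It held 15 fragments in lipid overload (8.4 to 24.7) against 5 in mock (1.62 to 11.7). Its ratio of 3.0 (1.04 to 10.6) takes in the depth ratio.

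KLF13, a repressor studied in lymphocytes, had 14 fragments in lipid overload (7.65 to 23.5) in a peak at chr15:31326551-31326767, with its summit 250 bp upstream of the start. The scaled value of 5.34 (2.92 to 8.95) passed the mock limit of 5 by less than its counting error. KLF9, a target of thyroid hormone and glucocorticoids, had no peak at its ends or inside in either list. Its lipid-overload peaks, of 9, 8 and 8 fragments, lie in a row 5007 to 5900 bp upstream of the start, within the divergent transcript KLF9-DT. All 3 fall below the mock limit of 5 after scaling, at 3.43 (1.57 to 6.51), 3.05 (1.32 to 6.01) and 3.05 (1.32 to 6.01). The limit lies within each interval.

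KLF15, the metabolic member of the list, had 12 fragments in lipid overload (6.20 to 21.0) in a peak of 245 bp at chr3:126357404-126357648, with its summit 137 bp upstream of the start. Mock had no peak at, in or within 50 kb of KLF15. The scaled start peak of 4.57 fragments (2.36 to 7.99) fell below the mock limit of 5, which lies within the interval.

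**Figure D2:**
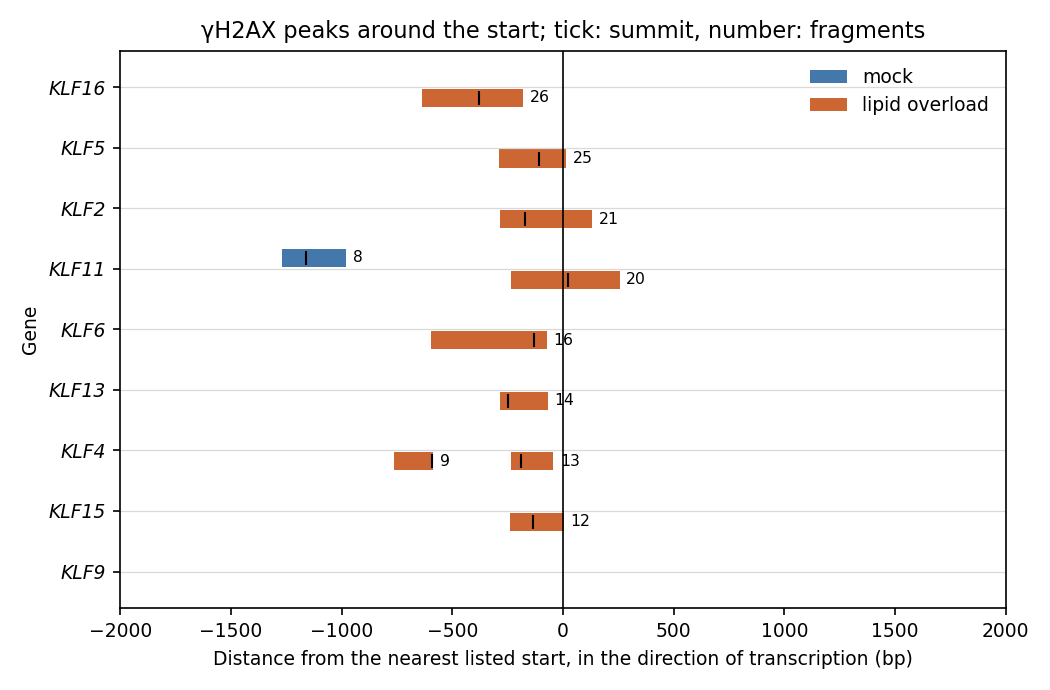
γH2AX peaks (bars; blue mock, orange lipid overload) within 2 kb of the nearest listed start of 9 KLF genes, by distance in bp along the direction of transcription; ticks mark summits and numbers give fragments over the summit. The highest lipid-overload peak of 7 of the 8 marked genes has its summit upstream of the start, by 107 to 378 bp, and that of KLF11 lies 20 bp downstream. Summit positions over all protein-coding genes were not counted.

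Over the 8 genes with a known start and a lipid-overload peak there, the median summit was 154.5 bp upstream of the start. The same median was not worked out over all protein-coding genes, so this position shows nothing particular to KLF genes. In order of height the peaks had 26 (KLF16), 25 (KLF5), 21 (KLF2), 20 (KLF11), 16 (KLF6), 14 (KLF13), 13 (KLF4), 12 (KLF10) and 12 fragments (KLF15). No neighbours in this order differed beyond counting error: the largest step, KLF11 over KLF6, was 1.25 times (0.615 to 2.58). The highest over the lowest was 2.17 times (1.06 to 4.71), a pair taken for being extreme. Gene-end peaks of the members in lipid overload, 9 in all, had a median of 14 fragments and 225 bp. The 8463 peaks at ends of all protein-coding genes had 12 fragments (quartiles 8 and 17) and 261 bp (quartiles 182 and 385), so the members' gene-end peaks were of ordinary height and width. These leave out the start peaks of KLF16 and KLF5. The 9 peaks ordered above had medians of 16 fragments and 307 bp, higher than the medians at all gene ends but within their quartiles. A gene-end peak of 20 or more fragments was found at KLF2 and KLF11, 2 of 10 genes, beside 9.57% of all genes. The start peaks of KLF16 and KLF5 also reached 20 but lie beyond the gene-end rule.

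The depth of the 2 libraries bears on how many KLF genes count as marked in lipid overload only. When lipid-overload peaks were kept only if their scaled fragments reached the mock limit at a like background, 5 of 10 genes had a gene-end peak (KLF2, KLF6, KLF11, KLF13 and KLF16), beside 25.3% of all genes, and 3 of them had none in mock (KLF2, KLF6 and KLF13), beside 15.5%. By starts, 6 of 9 genes remained, with KLF5 added, beside 27.1% of all genes. The filter was added once the peaks were known.

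Inside the genes and away from their ends, 5 KLF genes held a peak in lipid overload, beside 27.8% of all protein-coding genes, and 1, KLF16, in mock, beside 12.8%. For KLF5 and KLF16 this includes the start peak described above. Both long members, KLF13 (108831 bp) and KLF15 (69284 bp), held 3 such peaks each in lipid overload and none in mock. Of 4209 protein-coding genes of 50 to 150 kb, 42.7% held at least 1 inside peak in lipid overload and 20.7% in mock, and 12.0% held 3 or more in lipid overload. In KLF13 these peaks had 6, 9 and 16 fragments and lay 27293, 45846 and 70425 bp past the start. The one of 16 (9.15 to 26.0), at chr15:31397218-31397521, overlaps the noncoding gene LOC105370939. Scaled to mock depth it held 6.1 (3.49 to 9.9), with the mock limit of 5 within the interval. Those of 6 and 9 held 2.29 and 3.43, below a limit of 4 at each. In KLF15 they had 11, 9 and 7 fragments at 7221, 40885 and 56867 bp past the start. Scaled, these held 4.19, 3.43 and 2.67, below mock limits of 5, 4 and 3. The lack of mock peaks inside KLF13 and KLF15 therefore does not show a gain, which was not tested. KLF16 had a further inside peak of 18 fragments (10.7 to 28.4) 8014 bp past its listed start in lipid overload, and near it a separate mock peak of 5.

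**Figure D3:**
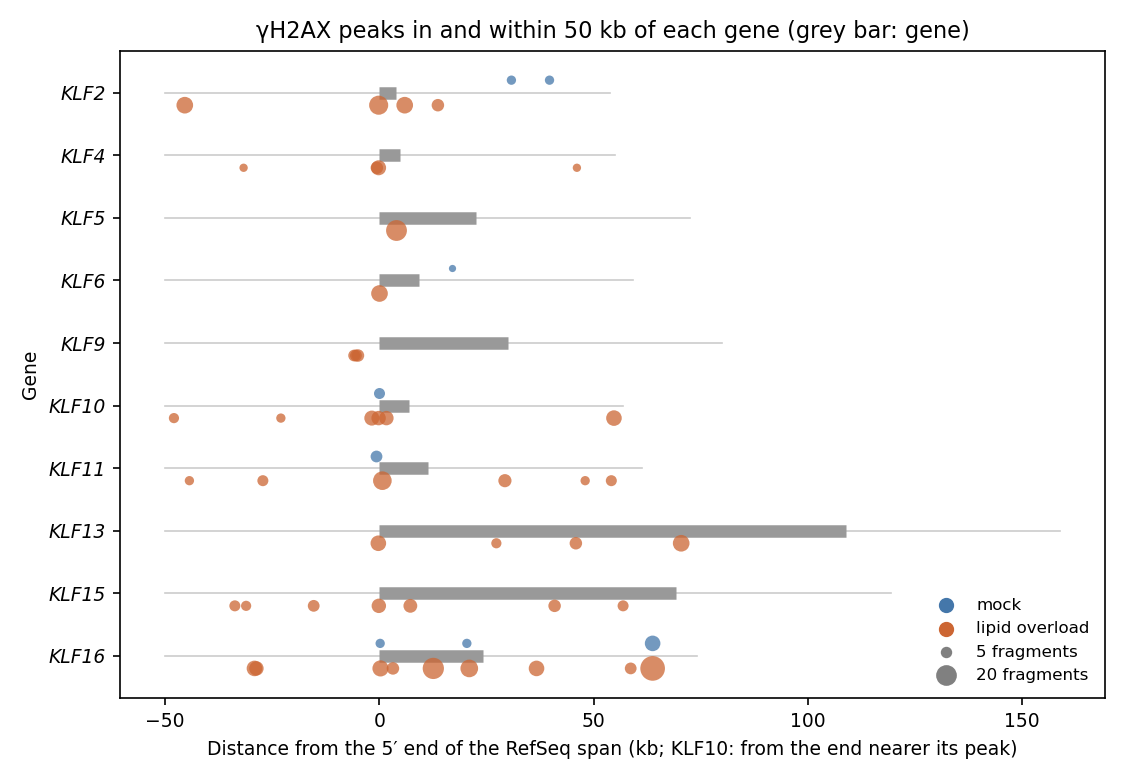
Summits of γH2AX peaks (blue mock, orange lipid overload; circle area in proportion to fragments) along each KLF gene (grey bar) and the 50 kb on each side (thin line), by distance in kb from the 5′ end of the RefSeq span; KLF10, whose strand is not in the promoter table, is drawn from the end nearer its peak. KLF16 has the most peaks, 9 in lipid overload and 3 in mock, and KLF5 and KLF6 have 1 each in lipid overload.

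With the 50 kb on each side included, all 10 KLF genes had a peak in lipid overload, beside 80.0% of all protein-coding genes, and 5 had one in mock, beside 52.0%. The members gathered 45 peaks in lipid overload and 8 in mock, all of them different. Of the 45, 3 overlapped a mock peak. The share of all 27296 lipid-overload peaks that overlap a mock peak was not counted, so this number shows nothing particular to KLF genes. The number per gene in lipid overload ran from 1 at KLF5 and KLF6 to 9 at KLF16, with a median of 4, beside a median of 2 over all genes. KLF15 had 7, KLF10 and KLF11 6 each, KLF2, KLF4 and KLF13 4 each, and KLF9 3. Of the 25 peaks that lay outside the genes and their ends, 14 were nearer to the end of another protein-coding gene than to that of the KLF gene.

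The highest peak in these neighbourhoods belongs to the end of ATP8B3, which encodes a lipid flippase subunit, on the 3′ side of KLF16. At chr19:1812379-1812895 it had 35 fragments in lipid overload and 14 in mock, a ratio of 2.5 (1.31 to 5.03) that takes in the depth ratio. Near KLF2, lipid-overload peaks of 16 fragments each (9.15 to 26.0) lay 45421 bp upstream of the start and 5903 bp past it, the latter at chr19:16330544-16330846. Neither had a mock counterpart, and the mock peaks of this neighbourhood, 5 fragments each, lay in EPS15L1, an endocytosis gene. Scaled to mock depth each of the lipid-overload peaks holds 6.1 fragments (3.49 to 9.9). The mock limits, 4 for the upstream peak and 6 for the other, lie within that interval.

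**Figure D4:**
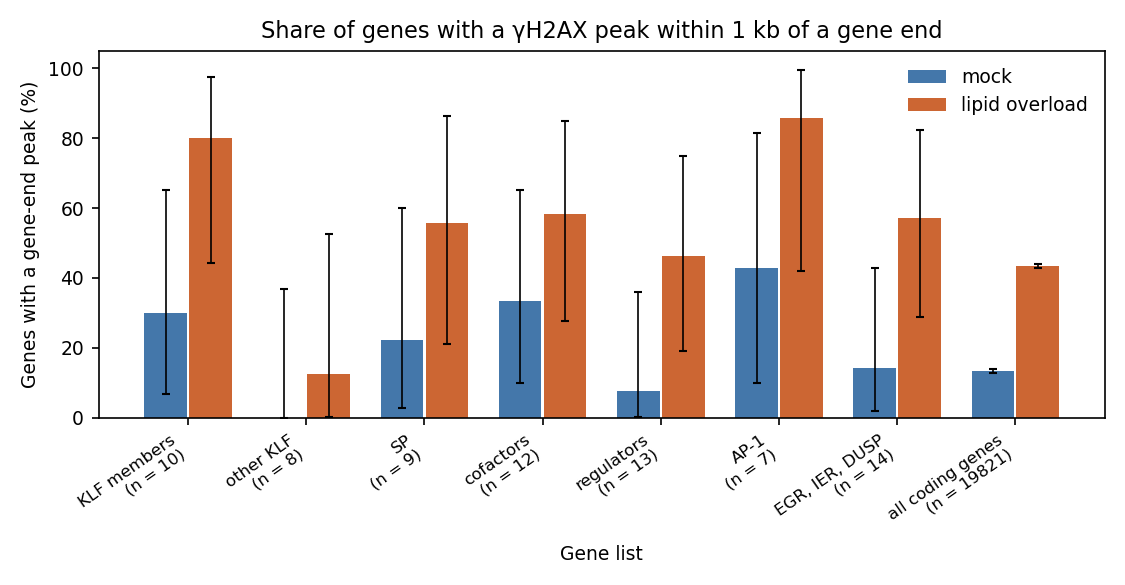
Percent of genes (y axis) with a γH2AX peak within 1 kb of a gene end in mock (blue) and lipid overload (orange), for the KLF members, related gene lists and all protein-coding genes (x axis, with the number of genes); lines are exact 95% binomial intervals. The KLF members stand at 30% and 80% and all genes at 13.4% and 43.4%, and the intervals of the short lists are wide.

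Related genes were marked to differing degrees at their ends. The fragment ratios given for them set the highest peak of one list beside that of the other, at the depth ratio of 2.62. All protein-coding genes stood at 43.4% in lipid overload and 13.4% in mock at ends, and at 45.5% and 14.0% by starts. Of the 8 other KLF genes in the list (KLF1, KLF3, KLF7, KLF8, KLF12, KLF14, KLF17 and KLF18), 1 was marked at an end after lipid overload (12.5%, 0.316 to 52.7) and 0 in mock. That gene was KLF3, a CtBP-binding repressor, with 10 fragments, named after its value was seen. By starts, 2 of the 7 with an entry had a peak in lipid overload. The share of the 10 members was higher than that of these 8, but the members were proposed with results of these data known and the difference was not tested. Of the 9 SP genes, the sister family that binds the same GC box, 5 were marked in lipid overload (55.6%, 21.2 to 86.3) and 2 in mock. By starts the counts were 5 and 2 of 6. In lipid overload SP1 had 50 fragments and SP2 had 33, both above any KLF gene. With 12 fragments at SP1 and 11 at SP2 in mock, the ratios of 4.17 (2.19 to 8.6) and 3.0 (1.48 to 6.58) take in the depth ratio.

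Genes that act with or on KLF proteins were counted in the same way, beside 43.4% of all genes at ends in lipid overload and 13.4% in mock. Of 12 cofactor genes (SIN3A, SIN3B, SAP30, CTBP1, CTBP2, HDAC1, HDAC2, HDAC3, NCOR1, EP300, CREBBP and KAT2B), 7 were marked at an end after lipid overload (58.3%, 27.7 to 84.8) and 4 in mock. By starts the counts were 8 and 5 of 12, beside 45.5% and 14.0% of all genes. HDAC1, a histone deacetylase, had 7 fragments in mock and 23 in lipid overload, a ratio of 3.29 (1.36 to 9.07) that takes in the depth ratio. SIN3A, the corepressor gene itself, had no gene-end peak but carried a start peak in both lists, of 8 fragments in mock and 41 in lipid overload. Its ratio of 5.12 (2.37 to 12.7) takes in the depth ratio, and it was singled out after its values were seen. Of 13 regulators (MAPK7, MAP2K5, MEF2A, MEF2C, MEF2D, WWP1, FBXW7, SMAD2, SMAD3, SMAD4, NR3C1, BMAL1 and CLOCK), 6 were marked in lipid overload (46.2%, 19.2 to 74.9) and 1 in mock. The kinase gene MAPK7, whose product activates KLF2 through MEF2 factors, had 10 fragments in mock and 38 in lipid overload. The ratio of 3.8 (1.86 to 8.55) takes in the depth ratio. MEF2D had 25 in lipid overload, at a gene end and not within 1 kb of a listed start. Mock had no peak at an end of MEF2D but 1 within 50 kb. By starts 5 of 12 regulators were marked in lipid overload (41.7%) and 1 in mock. The lipid-overload shares of the regulators, at ends and by starts, lay close to those of all genes.

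Immediate early genes of other families give a further comparison. The shares of all protein-coding genes were 43.4% in lipid overload and 13.4% in mock at ends, and 45.5% and 14.0% by starts. Of the 7 AP-1 subunit genes, 6 were marked at an end after lipid overload (85.7%, 42.1 to 99.6), the exception being FOSB. In mock 3 were marked (42.9%, 9.9 to 81.6). JUN had 33 fragments in lipid overload against 17 in mock, and FOSL1 had 31 against 14. Their ratios, 1.94 (1.05 to 3.72) and 2.21 (1.14 to 4.5), take in the depth ratio. JUND had 31 against 24, a ratio of 1.29 (0.734 to 2.3) that lies below the depth ratio: scaled to mock depth, its lipid-overload peak holds 11.8 fragments. FOSL2 (47) and JUNB (21) had no mock peak at an end. By starts 5 of 6 AP-1 genes were marked in lipid overload and 2 in mock. Of 14 EGR, IER and DUSP genes, 8 were marked in lipid overload (57.1%, 28.9 to 82.3) and 2 in mock (14.3%, 1.78 to 42.8). By starts the counts were 7 and 1 of 10. EGR1 had 11 fragments in mock and 39 in lipid overload, a ratio of 3.55 (1.78 to 7.68) that takes in the depth ratio. DUSP1 (30) and DUSP2 (25) had no mock peak at an end. The median of the highest gene-end peak in lipid overload, with unmarked genes at 0, was 13.5 fragments for the KLF members, 31 for the AP-1 list, 10 for the EGR, IER and DUSP list and 0 for all protein-coding genes. The peak lists cannot check the cell label. Of 10 hepatocyte marker genes, ALB and HNF4A among them, 0 were marked at an end in either list. All protein-coding genes stood at 43.4% in lipid overload and 13.4% in mock. By starts, 1 of 6 hepatocyte markers with an entry was marked in lipid overload and 0 in mock. Of the T cell, fibroblast and endothelial markers, 1 of 3 in each list was marked at an end in lipid overload and 0 in mock.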

How the data were processed

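γH2AX CUT&Tag peak lists of 1 mock and 1 lipid-overload HepG2 library were used, grouped by sample title. The submitters' processing notes name MACS2 2.1.2 for peaks, beside BWA, FastQC and deepTools, on build hg38. Settings, and any use of IgG as control, are not stated in the labels. The deposited lists give each peak's score, fold (a linear ratio to local background), −log10 p, −log10 q and summit, as the authors' caller made them.

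Fold and −log10 p were solved together for the local background b and the whole number n of fragments at the summit, as MACS2 defines them: fold is (n + 1)/(b + 1), and p is the Poisson chance of more than n. Every peak, 100% in each list, had a whole solution to within 0.0001 of its log10 p, and the step was tested on simulated data. For 56 mock peaks a second whole solution also lay within that tolerance, and the closest was used. None of these was among the members' 8 mock peaks. The lowest background (0.121 and 0.289 fragments) divided by mean fragment length (136.8 and 124.5 bp, from the spacing of the backgrounds) gave the depth ratio. Both the length and the ratio assume a local background taken from the γH2AX library and not from IgG. The mock limit at a site is the lowest fragment number among mock peaks whose background lies within 10% of the scaled local background.

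Genes came from the RefSeq table, without 718 entries out of position order by over 1 Mb. Overlap means at least 1 bp shared. No test across conditions was possible with 1 library each. All 10 members are named; list genes are named from 20 fragments up. The members and lists were chosen with earlier results of these data known. Alternatives were a minimum of 5 on −log10 q or on fold, lists of equal length, depth filters, merging within 1 kb, gene ends of 3 or 0.5 kb, 5′ ends only, distances of 20 or 100 kb, and overlap of 50% or within 1 kb. Python 3.11.15, numpy 2.4.6, pandas 2.3.3 and scipy 1.17.1 were used.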

Additional observations from a re-analysis of the deposited data

How the results depend on the processing

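Of 77 alternative values of the counts over KLF genes and their peaks, 57 stayed within 1.5 times the reported count and the other 20 were lower. Some of the 57 could not move, so their number does not measure stability. Equal list lengths and the depth filter set by the lowest mock fragment number left the mock list unchanged. Merging peaks cannot lower the number of genes with a peak within 50 kb. With a −log10 q of at least 5, mock genes marked at an end and marked inside fell to 0 (beside 3.84% of all genes marked at an end) and 0, genes with a peak within 50 kb in mock to 1, peaks in mock to 1, genes with an inside peak in lipid overload to 3, peaks in lipid overload to 19 and shared peaks to 1. With a fold of at least 5 the mock values were 1 (beside 8.11%), 0 and 2 genes and 2 peaks, with 24 lipid-overload peaks and 1 shared. Equal list lengths left 3 genes with an inside peak and 17 peaks in lipid overload. By 5′ ends only, 1 gene was marked in mock, beside 14.0%. Within 20 kb there were 5 mock and 29 lipid-overload peaks. Under these settings the shares of all genes with an inside peak or a peak within 50 kb were not counted. The falls in those counts therefore show nothing particular to KLF genes. The depth filter at a like background, added after the data were seen, left 5 genes marked at an end in lipid overload (beside 25.3%) and 3 in lipid overload only (beside 15.5%). Of 22 fragment numbers under other gene-end windows, 21 stayed within their counting interval, and KLF11 in mock went to 0 with 0.5 kb. The mock library's depth limits what can be said of weak sites: 30 of the 45 lipid-overload peaks fell below the mock limit once scaled. The share of all lipid-overload peaks below that limit was not counted. No paired analysis was possible because each group has 1 sample.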
